A study of Sus scrofa with 14 samples.

Results

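Circular RNAs (circRNAs) are closed loops, formed by backsplicing of an exon's 3′ end to a 5′ end that lies before it in the gene, and reads that cross this backsplice junction are used to count them. Most circRNAs carry exons of protein-coding genes, so a circRNA is usually named after the gene it overlaps, its host. Loops have no free ends and resist exonucleases, and in mammals they are known to be abundant in brain. The circRNAs described here are the lines of a pig cortex circRNA table whose host name is a dash: 206 of 5585 lines, chosen by that field alone. The other 5379 lines name a host.

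The table covers embryonic pig brain with 1 library of rRNA-depleted total RNA for each stage: embryonic day (E) 23 from forebrain, and E42, E60, E80, E100 plus E115 from cortex. A second table covers 5 regions (basal ganglia, brain stem, cerebellum, cortex and hippocampus) at E60 and E115, for 14 libraries in all. The labels give no genotype, breed, treatment or animal for any library, and they do not say how many animals gave each one. With 1 library for each stage no spread between animals could be measured, and E23 differs from the later stages in tissue as well as day. In bulk tissue, fewer cells of a type and less RNA per cell cannot be told apart. The cortex-series libraries held 21.4 to 58.8 M (1e6) reads, and levels are given as junction reads per M of these (RPM), with 95% exact Poisson intervals. These intervals cover counting error only. FLT1, a vascular receptor gene, had a host FPKM (fragments per kb per M) of 1.25 to 15.2 and was highest at E100 and E115.

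The dash is not the absence of any host transcript signal. Every one of the 206 lines carries a host gene FPKM above 0 in at least 1 stage, and some lines of 1 chromosome and strand share the same 6 FPKM values. By these values the 206 circRNAs fell into 152 loci that have an expression value but no name, and none of the 152 sets of values occurred in a line with a named host. They are therefore called circRNAs without a host name below, and each such locus an unnamed locus. Why a locus has no name is not given in the sources used here. A locus in this sense is a set of values and need not be a separate stretch of the genome. Those of chr6:69449174-69453376 and chr6:69433065-69453376, for example, overlap on the minus strand. Of the 152 loci, 118 gave 1 circRNA, 21 gave 2, 9 gave 3 and 4 gave 4 or more. The median unnamed locus stood at 4.19 FPKM at E23, 8.32 at E60 and 6.88 at E115, against 14.9, 12.4 and 12.6 for 2462 named host entries. At E115 94 of the 152 unnamed loci (61.8%) had a higher FPKM than at E23, against 958 of the named entries (38.9%). Reads from inside a loop may count towards the FPKM of its locus, so loop and locus levels need not be independent. This was not tested.

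The circRNAs without a host name lay on every autosome and on X. Chromosome 13 had most, 33 of its 494 circRNAs (6.68%, 95% exact binomial interval 4.64% to 9.25%), followed by chromosome 1 with 25 of 696 and chromosome 9 with 22 of 376. Chromosome 12 had 1 of 199 (0.503%, interval 0.0127% to 2.77%), fewest among the autosomes, and Y had 0 of 2. These intervals treat lines as independent, although some lines share an unnamed locus, and may be too narrow. Lines on both strands were about equally common, 101 on plus and 105 on minus. Of the 206, 2 overlapped a circRNA with a host name and 1 shared a junction end with one. The first is chr13:25498737-25501805, which shares an end with a line of EXOG, and the other chr11:8617215-8617414. Since a circRNA is usually named after the gene it overlaps, so low a count follows in part from choosing lines without a name. The median gap to the nearest circRNA with a host name was 283174 bp, and 52 of the 206 had one within 100 kb. Positions are those of the build Sscrofa10.2, counted from 1.

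Short loops were more frequent among them than among the rest. The distance between junction ends was under 1 kb in 37 of 206 (17.96%) and in 517 of the 5379 lines with a host name (9.61%). The medians were near each other, 8685 and 9687 bp, and the share of 40 kb or more was alike, 12.1% and 11.95%. This distance runs over the genome and includes any introns. The shortest with at least 20 reads spanned 293 bp (chr3:50658315-50658607), and the longest 91569 bp (chr2:92063632-92155200).

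**Figure D1:**
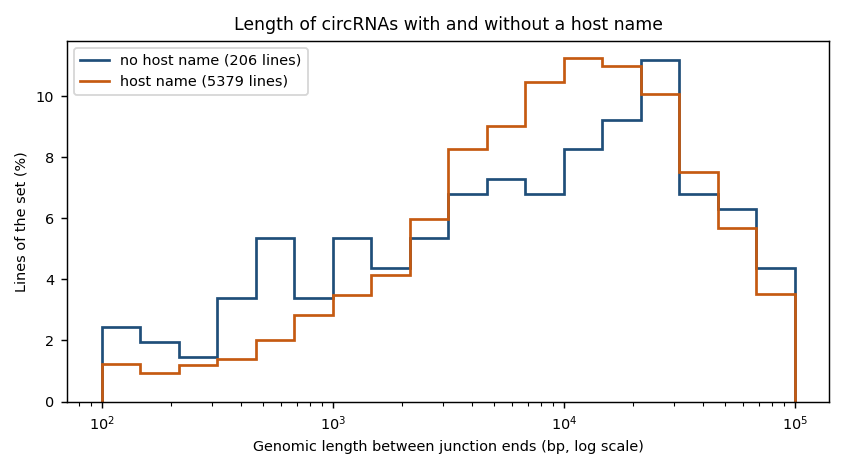
Genomic length between the junction ends of circRNAs (x axis, bp, log scale) as a percentage of the lines of each set (y axis), for 206 lines without and 5379 lines with a host name. The set without a host name holds more lines under 1 kb, 17.96% against 9.61%, and a similar share from 40 kb up.

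Their reads were concentrated in a few loops. The 206 lines had 4409 reads in all, of which the 4 most abundant had 42.7%. The 7 lines with at least 100 reads had 52.2%, where 130 of 5379 lines with a host name had as many and held 35.04% of the reads of that set. The median line had 5 reads, and 142 of 206 (68.9%) had under 10, as did 67.9% of lines with a host name. The single libraries added up to the total stated for all of them in 187 of the 206 lines. In the other 19 the E100 library had 0 reads in every one, whereas each other library had 0 in 6 to 9 of them. In 95.1% of the lines with a host name that did not add up E100 had 0 reads too. Stage patterns below use the 187 lines. Of these, 30 had at least 20 reads, 20 had reads at all 6 stages and 52 (27.8%) had reads at 1 stage only, with at most 9 reads each, against 22.7% of lines with a host name. The pair with at least 20 reads among the 19 were chr10:19943997-19946705, with 7, 7, 9, 7, 0 and 4 reads from E23 to E115, and chr13:90075586-90080170, with 4, 6, 6, 9, 0 and 3.

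Summed over these loops, the level was highest at E60. From E23 to E115 the libraries stood at 10.9, 23.8, 39.8, 15.8, 17.02 and 15.4 RPM. The interval at E60, 37.2 to 42.6 RPM, lay above all others, of which the next highest was 22.01 to 25.8 RPM at E42. E60 over E115 gave a ratio of 2.58 (exact conditional interval 2.34 to 2.84). For circRNAs with a host name the same ratio was 3.84 (3.75 to 3.93). From E23 to E115 the directions of the sums differed: the level without a host name was 1.41 times as high at E115 (1.27 to 1.56), and that with a host name 0.735 times as high (0.717 to 0.753). The 6 late loops described below went from 0.340 RPM at E23 to 5.85 at E115. All other loops without a host name went from 10.6 to 9.56 RPM together. Since the 6 were chosen by their late levels, a lower late level of the others follows in part from the choice.

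As a share of all circRNA reads, those without a host name made up more at the later stages. In order of day the libraries had shares of 3.85%, 3.71%, 4.91%, 5.19%, 6.29% and 7.13%. The exact binomial intervals were 3.57% to 4.16% for the first of these and 6.67% to 7.62% for the last. Only E23 and E42 went against the order of days, and their intervals overlap (3.43% to 4.001% at E42). Over the 6 libraries Pearson's r with day was 0.97 (exact permutation test, two-sided, p = 0.00556, adjusted p = 0.0333) and Spearman's rho was 0.94 (exact permutation p = 0.0167, adjusted p = 0.05, which does not fall below the threshold of 0.05). The adjustment is over 6 correlations: the share of reads, the share of circRNAs detected and the summed level, each by both measures. Leaving out the earliest and the latest day, r was 0.97 (exact permutation p = 0.0833, the smallest that 4 libraries allow). The summed level itself had no such relation (rho -0.03, exact permutation p = 1; r -0.12, exact permutation p = 0.853; adjusted p = 1 for both).

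Depth differed between stages, with 48.5 to 58.8 M reads at E23, E100 and E115 and 21.4 to 26.7 M at E42, E60 and E80. Within each of these sets of 3 libraries the share was in the order of days, which is too few for a test. Of circRNAs detected with at least 2 reads, 73, 60, 84, 56, 64 and 65 had no host name from E23 to E115, or 3.36%, 2.61%, 3.61%, 4.36%, 3.64% and 4.42% of all those detected (rho 0.89, exact permutation p = 0.0333, adjusted p = 0.0667; r 0.72, exact permutation p = 0.0917, adjusted p = 0.138).

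**Figure D2:**
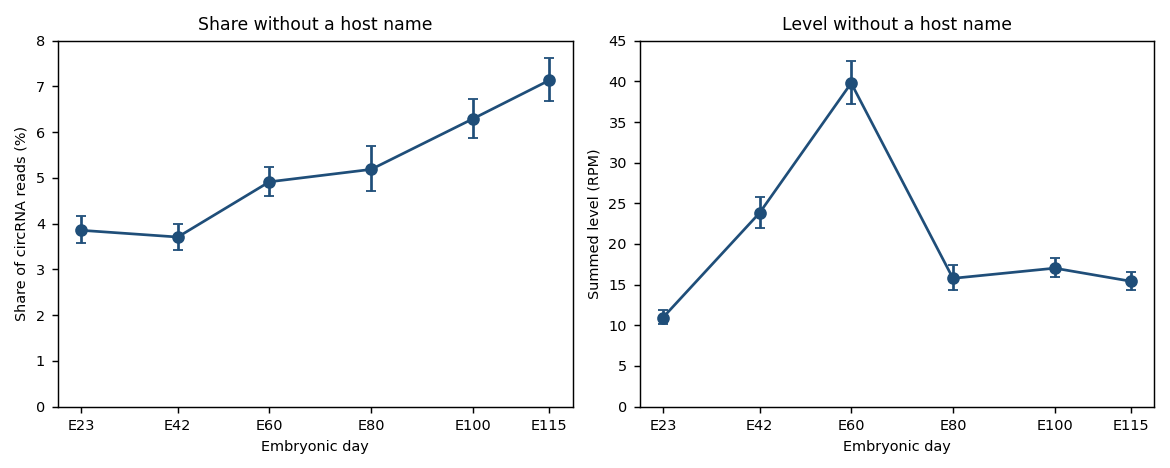
Left, share of all circRNA reads that came from circRNAs without a host name (y axis, percent, with exact binomial intervals) by embryonic day (x axis); right, their summed level (RPM, with exact Poisson intervals). Each point is 1 library; the share is 3.85% at E23 and 7.13% at E115, while the level is highest at E60, at 39.8 RPM.

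Much of the late share came from 6 loops whose levels at both E100 and E115 were above all 4 earlier levels. They supplied 20 of 644 reads without a host name at E23 (3.11%), 42 of 852 at E60 (4.93%), 104 of 420 at E80 (24.8%), 310 of 826 at E100 (37.5%) and 316 of 832 at E115 (37.98%). The same pattern was met by 6 of the 30 loops with at least 20 reads (20%) and by 23 of 773 with a host name (2.98%). No test is attached to these counts, since loops are not replicates of a stage. Without the reads of the 6 the share was 3.74%, 3.53%, 4.68%, 3.95%, 4.03% and 4.55% from E23 to E115; the 6 were chosen by their late levels, and the late loops with a host name were kept, so a smaller rise follows from the choice.

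The most abundant of the 6 was chr9:19582066-19609249, a loop spanning 27184 bp on the minus strand. It had 3, 19, 20, 60, 140 and 147 reads from E23 to E115, or 0.0510, 0.712, 0.934, 2.25, 2.88 and 2.72 RPM. The level went up at each stage as far as E100, and the last pair of libraries did not differ beyond counting error (E100 over E115 1.06, interval 0.835 to 1.34). Its unnamed locus had a parallel course, at 5.99, 63.2, 67.6, 103, 275 and 193 FPKM, and was also highest at E100. E100 and E115 pooled held 3.67 times the level of the 4 earlier libraries pooled (2.92 to 4.64).

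The loop chr4:21605708-21637785 (32078 bp) was close to absent until E60 and had most reads at term. It had 5, 1, 2, 10, 48 and 60 reads, or 0.0850, 0.0375, 0.0934, 0.376, 0.989 and 1.11 RPM. The E115 level was 11.9 times that of E60 (exact conditional interval 3.15 to 100.5). Its locus also went up, with 26.3, 200, 176, 507, 620 and 820 FPKM. The locus was thus already at 200 FPKM at E42, when the loop had 1 read. Only 47 of its 126 reads (37.3%) were unique, the lowest such share among the 15 lines without a host name that had at least 50 reads (median 68.8%; 74.8% over 308 lines with a host name). A further line, chr4:21605703-21637785, differs from it by 5 bp at the start and had 6 reads, 4 of them at E115. Such near-identical ends could split the reads of 1 junction.

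Another loop, chr17:49887473-49948154 (60682 bp), had 0, 1, 5, 7, 34 and 36 reads, or 0, 0.0375, 0.234, 0.263, 0.701 and 0.667 RPM. The count of 0 at E23 allows up to 3 reads, 0.0510 RPM, which is about a one-sided 95% limit, whereas the intervals are two-sided. Its locus is listed at 0 FPKM at E23 and stood at 168 at E100 and 137 at E115, so loop and locus were both highest at the last pair of stages. The nearest circRNA with a host name on its right, 325924 bp away, comes from PTPRT, a receptor tyrosine phosphatase gene. On chromosome 18, chr18:3723552-3779571 (56020.0 bp) had 11, 7, 12, 22, 51 and 54 reads, or 0.187, 0.262, 0.560, 0.826, 1.05 and 1.0 RPM. Its locus was at 5.64 FPKM at E23, 12.6 at E60 and 55.1 at E115. The change was smaller than in the loops above, with a late level 2.63 times the earlier one (1.87 to 3.74).

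The remaining pair had few reads. The loop chr1:60436312-60443757 had 0, 1, 3, 4, 18 and 11 reads (0.371 RPM at E100 and 0.204 at E115), and its locus 0.648 FPKM at E23, 30.1 at E100 and 16.1 at E115. A line that ends 4 bp before it, chr1:60436312-60443753, had 6 reads. The loop chr15:156396928-156442590 had 1, 2, 0, 1, 19 and 8 reads (0.392 RPM at E100 and 0.148 at E115), and its locus was listed at 0 FPKM at E42 and E60 and at 2.92 to 3.84 from E80. In all 6, the locus FPKM was highest at E100 or E115.

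**Figure D3:**
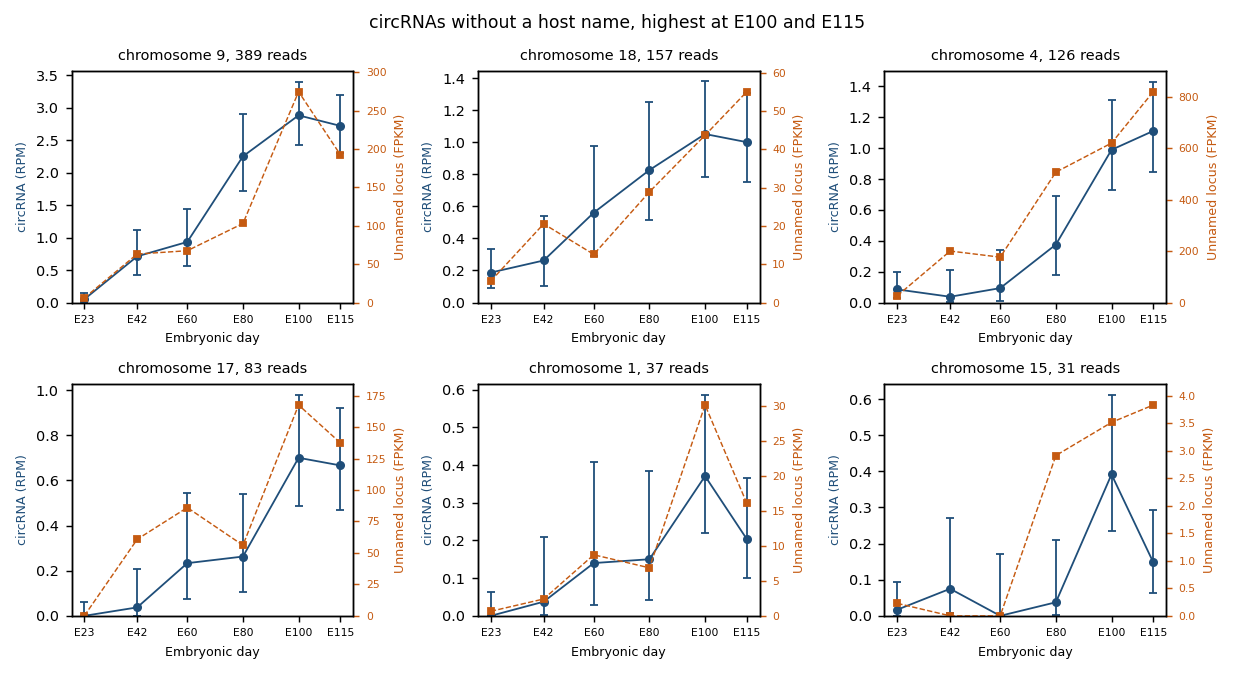
Level of the 6 circRNAs without a host name that rise late (left axis, RPM, circles with exact Poisson intervals) and FPKM of their unnamed loci (right axis, squares), by embryonic day; each point is 1 library. Both are highest at E100 or E115 in all 6 panels, and the chromosome 4 loop stays under 0.1 RPM up to E60 while its locus is at 200 FPKM at E42.

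Whether single loops changed steadily with day was tested with a linear term over the 6 libraries, fitted to all 803 circRNAs with at least 20 reads (edgeR's quasi-likelihood test, Benjamini-Hochberg adjustment). Scaled by library totals, none of the 30 without a host name was called. An unadjusted p under 0.05 was found for 8 of the 30 and for 88 of all 803. Some of the 8 were higher and some lower at later days. Over all 803, 3 were called (0.374%), 1 higher (0.125%) and 2 lower at later days (0.249%). The lowest adjusted p from edgeR, 0.163, belonged to chr4:21605708-21637785 (log2 change 4.53 from the first to the last day, SE 1.23) and to chr1:153224255-153226225 (6.85, SE 1.84). The count differed between scalings. The median circRNA changed by -1.47 on the log2 scale with library totals and by -0.15 with TMM factors. With TMM factors 7 of the 30 were called, all higher at later days (23.3%), where 39 of all 803 were called (4.86%), 27 in that direction (3.36%) and 12 in the other (1.49%). DESeq2 with its own size factors called the same 7, among 47 of 803 (5.85%), of which 37 were higher (4.61%) and 10 lower (1.25%).

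These 7 were 5 of the 6 late loops, all but chr15:156396928-156442590 (edgeR adjusted p = 0.0657 with TMM factors), and a further pair. With TMM factors the log2 change was 5.88 for chr9:19582066-19609249 (SE 0.930, edgeR adjusted p = 0.00242), 7.22 for chr17:49887473-49948154 (SE 1.06, adjusted p = 0.00154), 5.61 for chr4:21605708-21637785 (SE 1.104, adjusted p = 0.0108), 5.83 for chr1:60436312-60443757 (SE 1.23, adjusted p = 0.0166) and 3.61 for chr18:3723552-3779571 (SE 0.831, adjusted p = 0.0284). Library totals gave the same direction for each, with log2 changes from 2.61 to 5.72. Each of these loops rose with TMM factors, and with library totals none was called over the 6 libraries.

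The further pair called with TMM factors did not meet the late pattern. The loop chr1:153224255-153226225 had 0, 0, 0, 3, 5 and 18 reads (0.113 RPM at E80, 0.103 at E100 and 0.333 at E115; log2 change 8.55, SE 1.56, edgeR adjusted p = 0.00695). Its locus went from 0.620 FPKM at E23 to 14.9 at E115. Among loops with at least 20 reads it had the highest ratio of E115 to the mean of the other stages, 7.73, followed by chr4:21605708-21637785 at 3.52. The loop chr13:148857550-148906255 had 3, 7, 7, 15, 24 and 24 reads, or 0.0510, 0.262, 0.327, 0.563, 0.495 and 0.445 RPM (log2 change 3.68, SE 0.901, edgeR adjusted p = 0.0323). It was highest at E80, which did not differ from E100 beyond counting error (1.14, interval 0.556 to 2.26). Its locus was less steady, at 20.1 FPKM at E42, 2.95 at E60 and 32.7 at E115.

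The number called differed when 1 library was left out, and each such fit applied the limit of 20 reads anew. Without E23, the only forebrain library, 11 of 28 were called with library totals, 4 higher and 7 lower at later days, among 178 called of all 651 tested (27.3%), 6 higher (0.922%) and 172 lower (26.4%). The 4 higher were chr9:19582066-19609249 (edgeR adjusted p = 0.0427), chr4:21605708-21637785 (adjusted p = 0.00551), chr17:49887473-49948154 (adjusted p = 0.0321) and chr1:153224255-153226225 (adjusted p = 0.0341). Among the 7 lower was chr15:19321481-19326434, with 25, 20, 19, 4, 0 and 5 reads from E23 to E115 (log2 change -5.48, SE 1.59, edgeR adjusted p = 0.0219). This change is the fitted slope scaled to the span from E23 to E115, although E23 was not in the fit. The locus of this loop was at 63.7 FPKM at E42 and still at 37.7 at E100, where the loop had 0 reads (up to 0.0618 RPM). Without E60 the same 4 were called, all higher, of 24, among 26 of all 619 (4.2%), 7 higher (1.13%) and 19 lower (3.07%). Without E80, 1 of 29 was called, chr1:153224255-153226225, among 4 of all 738 (0.542%), 2 in each direction (0.271% each). Without E42, E100 or E115 edgeR called 0 of all circRNAs tested. Its unadjusted p was under 0.05 for 5 of 27 without a host name when E42 was left out, against 39 of all 635. The counts were 4 of 23 against 30 of all 676 without E100, and 5 of 28 against 24 of all 717 without E115.

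The stage with the highest level was E60 for 15 of the 30 loops with at least 20 reads (50%), E100 for 6, E42 for 3 (10%), and E23, E80 and E115 for 2 each. With a host name, E60 was highest in 404 of 773 (52.3%), a similar share, and E42 in 236 (30.5%). E100 or E115 was highest in 8 of 30 (26.7%), against 54 of 773 with a host name (6.99%). A peak at 1 stage, at least 2 times the second highest level with an exact conditional interval above 1, was found in 8 of 30 (26.7%), against 120 of 773 (15.5%). Of the 8, 5 peaked at E60, 2 at E100 and 1 at E42. Of the 120 with a host name, most also peaked at E60 (94), with 18 at E42 and 0 at E100. The locus FPKM may include reads from inside the loop, and these were not separated. The loop was highest at the same stage as its locus FPKM in 16 of 30 (53.3%), against 270 of 773 with a host name (34.9%). These counts differed between scalings: per circRNA read of each library, in place of all reads, only chr1:153224255-153226225 had a peak at 1 stage, and 9 loops were highest at both E100 and E115.

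The loop with most reads, chr7:69988389-69988716, spans 328 bp on the plus strand and peaked at E60. It had 55, 121, 230, 41, 76 and 48 reads, or 0.935, 4.53, 10.7, 1.54, 1.57 and 0.889 RPM. The E60 level was 2.37 times that of E42 (1.89 to 2.98) and 12.1 times that of E115. Its locus moved less and had no peak at E60, with 34.3, 37.9, 31.6, 14.2, 15.1 and 9.63 FPKM. The nearest circRNA with a host name, 144287 bp to its left, comes from BAZ1A, which encodes a subunit of chromatin remodelling complexes. The loop chr3:50658315-50658607, also short, had 10, 42, 50, 14, 10 and 9 reads, or 0.170, 1.57, 2.34, 0.526, 0.206 and 0.167 RPM. It was highest at E60 and E42, which did not differ beyond counting error (ratio 1.48, interval 0.965 to 2.29). Here the locus moved with the loop, from 14.3 FPKM at E23 to 225 at E42, 231 at E60 and 17.4 at E115.

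Other E60 peaks were smaller. The loop chr13:115692729-115696994 had 0, 9, 39, 3, 14 and 28 reads, or 0, 0.337, 1.82, 0.113, 0.288 and 0.519 RPM, and its locus was highest at E60 as well, at 61.5 FPKM against 12.9 at E23 and 32.03 at E115. A longer loop with the same start, chr13:115692729-115712484, had 0, 2, 9, 2, 8 and 5 reads, so both were highest at E60 and had 0 reads at E23. The loop chr9:37674853-37675981 had 17, 9, 25, 7, 7 and 3 reads, or 0.289, 0.337, 1.17, 0.263, 0.144 and 0.0556 RPM. It shares its start with chr9:37674853-37678998, which had 13, 20, 19, 5, 0 and 2 reads. These 2 belong to a locus of 5 loops at 10.8 FPKM at E23, 16.9 at E42 and 5.62 at E115, and the 5 together had 2.48 RPM at E60 and 0.0926 at E115. The loop chr15:96079624-96085117 had 15, 6, 21, 3, 11 and 6 reads, and 0.981 RPM at E60 was 3.85 times its E23 level (1.89 to 8.02). Its locus stayed between 103 and 188 FPKM. The loop chr14:55592489-55634995 had 0, 2, 12, 3, 7 and 2 reads and, from 20 reads up, the highest ratio of E60 to the mean of the other stages, 7.60; its locus was highest at the same stage.

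Outside E60, peaks rested on few reads. At E42, chr4:96968371-96968740 (370 bp) had 14 reads against 3, 1, 0, 2 and 3 at E23, E60, E80, E100 and E115, so that E42 stood at 9.44 times the second highest level (2.64 to 51.2). Its locus had the same course, with 6.55 FPKM at E42 and at most 2.28 elsewhere. From 20 reads up, the next highest ratio of E42 to the mean of the other stages belonged to chr5:71944819-71945876, with 4, 11, 5, 1, 2 and 1 reads and a locus at 48.8 FPKM at E42 and listed at 0 at E115. At E100, chr14:58489334-58492159 had 6, 1, 0, 2, 14 and 5 reads (ratio to the second highest 2.83, interval 1.02 to 8.98) and its locus was highest there as well, at 5.18 FPKM. It lies between circRNAs of RYR2, a calcium release channel gene, and of MTR, the methionine synthase gene, which is 110345 bp away.

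**Figure D4:**
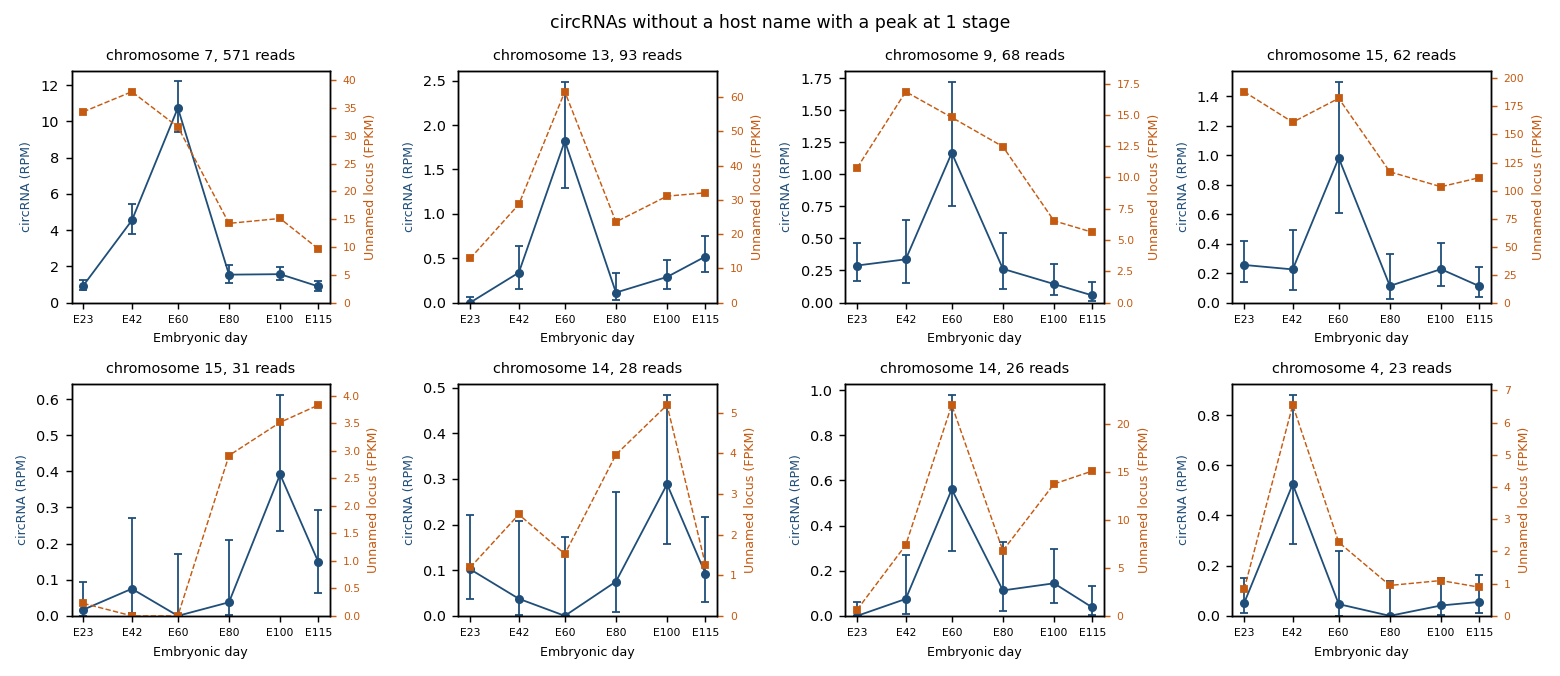
Level of the 8 circRNAs without a host name with a peak at 1 stage (left axis, RPM, circles with exact Poisson intervals) and FPKM of their unnamed loci (right axis, squares), by embryonic day; each point is 1 library. The chromosome 7 loop reaches 10.7 RPM at E60 while its locus stands at 31.6 FPKM, below 37.9 at E42.

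No loop with at least 20 reads had a peak at E23 or E80 by that rule. Among these loops the highest ratio of E23 to the mean of the other stages, 6.13, belonged to chr9:38389524-38420790, with 15, 1, 0, 3, 1 and 2 reads and a locus at 14.4 FPKM at E23 and 2.06 at E115. The next, 2.23, was that of chr5:106543058-106572931, with 10, 1, 4, 0, 4 and 4 reads, which was in fact highest at E60 per library read. Its locus was at 165 to 331 FPKM, and a circRNA of PPP1R12A, a regulatory subunit of myosin phosphatase, lies 17796 bp to its right. The highest ratio at E80, 2.61, belonged to chr2:101141685-101157198 with 8, 6, 4, 10, 2 and 7 reads, and 10 reads at E80 did not differ from E42 beyond counting error (1.67, interval 0.550 to 5.59).

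Other abundant loops neither rose late nor had a peak at 1 stage. The loop chr16:19294496-19299831 had 172, 69, 30, 42, 109 and 122 reads, or 2.92, 2.59, 1.40, 1.58, 2.25 and 2.26 RPM. It was lowest at E60, where most circRNAs were highest, and its locus was lowest there as well, at 16.4 FPKM against 60.9 at E23 and 41.5 at E115. E23 and E42 did not differ beyond counting error (1.13, interval 0.850 to 1.52). The longest from 20 reads up, chr2:92063632-92155200, had 57, 100, 68, 45, 44 and 65 reads, or 0.969, 3.75, 3.18, 1.69, 0.907 and 1.20 RPM, and its locus was highest at E60, at 227 FPKM, and lowest at E23, at 62.8. The loop chr13:90062337-90080170 had 9, 13, 19, 7, 25 and 13 reads and levels between 0.153 RPM at E23 and 0.887 at E60, with a locus at 96.0 FPKM at E60. It shares its end with chr13:90075586-90080170, given above among the lines that did not add up.

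Shared ends were less frequent than among lines with a host name. Of the 206 loops, 66 (32.04%) shared a start or an end with another one without a host name, 10 of them with at least 20 reads. Of lines with a host name 51.3% shared an end with another line, with or without a host name. The locus with most loops, on chromosome 13 between 37913560 and 37994009, gave 6 loops with 31 reads in all, and its FPKM lay between 13.4 and 37.4.

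The 206 positions were looked up in the table of 5 regions to follow them outside the cortex. Only 3 were found (1.46%, interval 0.301% to 4.20%), against 2829 of 5379 with a host name (52.6%). None of the 3967 lines of that table has a dash as its host name. The same E60 and E115 cortex libraries are in both tables, so abundance could be compared directly: of loops with at least 20 reads in these 2 libraries together, 0 of 15 without a host name were in the table of regions and 243 of 296 with one (82.1%). The chromosome 7 loop, with 230 and 48 reads in them, is among the 15. Absence from the table of regions is thus not a measurement of 0 in those regions, and regional levels of these loops were not analysed here.

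**Figure D5:**
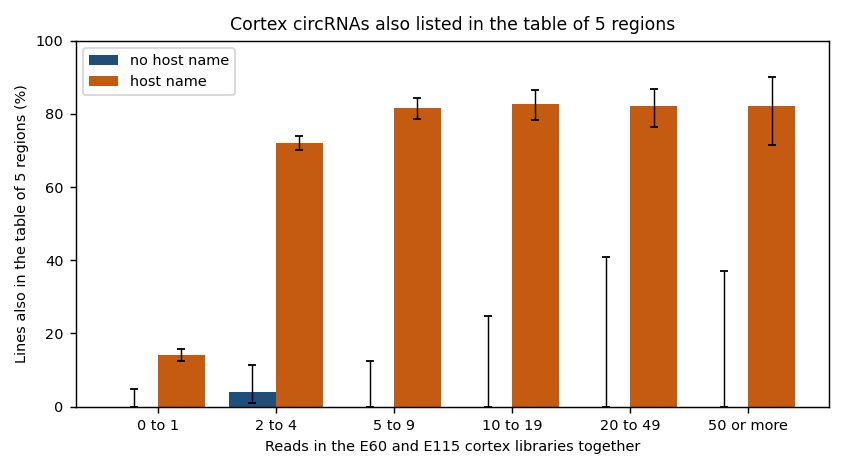
Percentage of cortex circRNAs that are also in the table of 5 regions (y axis, with exact binomial intervals) by their reads in the E60 and E115 cortex libraries (x axis), without and with a host name. From 5 reads up, 81.96% of loops with a host name are listed there and 0 of 56 without one.

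The 3 that were found carry a host name in the table of regions. The loop chr4:77589119-77600718 is assigned there to GGH, a gamma-glutamyl hydrolase gene, and had 2 reads in the E60 cortex (0.0934 RPM) and 0 in the other 9 libraries. The loop chr9:115316779-115317015 (237 bp) is assigned to 5S_rRNA and had 4 reads in the E60 cortex, 1 in the E115 cerebellum (0.0637 RPM) and 0 elsewhere. The loop chr11:8617215-8617414 (200.0 bp) is assigned to ENSSSCG00000009337 together with ENSSSCG00000023699 and had 2 reads in the E60 cortex alone. Their E60 cortex reads were the same in both tables. By the same limit of 3 reads, a count of 0 does not exclude levels up to 0.0556 RPM in the E115 cortex and 0.310 in the E115 basal ganglia.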

How the data were processed

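Per the file headers, the deposited values for each circRNA and library are a count of backsplice reads and an RPM made by the authors, listed at 0 where there is 1 read. Library totals were recovered as counts divided by RPM. Host loci carry a deposited FPKM per library, per the file headers. The submitters' processing notes name Trim Galore, TopHat2, Cufflinks and Cuffdiff and the build Sscrofa10.2 (susScr3). Which circRNA caller was used is not given in the sources used here. Unique reads and genomic lengths were deposited too, per the file headers.

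Host names and positions are those of the tables. Lines whose library counts add up to the stated total were used (4997 of 5585), and all lines as an alternative. Unnamed loci were defined by identical sets of 6 FPKM values. Trends were tested with edgeR 4.0.16 in R 4.3.3, for circRNAs of 20 or more reads, with DESeq2 1.42.0 as an alternative. The fit was also run on simulated counts with less scatter between libraries (a lower dispersion) than the 0.626 of the real fit. That run therefore does not measure power or false calls in these data. The p-values measure the scatter of stages around a line, not between animals. Loops named with values are the 10 with most reads, the 2 with the highest ratio of a stage to the mean of the others for each stage, those called or rising late, the shortest and longest with at least 20 reads, those in the table of regions and the 4 most abundant that share an end; partners sharing an end, loops with a peak at 1 stage, chr15:19321481-19326434, the EXOG line and the lines left out were chosen after their values were seen. The circRNAs, the rules and the tests were chosen with earlier results of these data known. No genome of the build was used, so sequences, exons and introns were not examined. Host FPKM values of the table of regions were not used, and 1 item is not reported here.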

Additional observations from a re-analysis of the deposited data

How the results depend on the processing

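The number of circRNAs called in the trend over day was 3 of all and 0 of those without a host name with edgeR and library totals, 39 and 7 with TMM factors, and 47 and 7 with DESeq2; with at least 10 reads, no filter or all lines it stayed at 3 and 0. Leaving out 1 library at a time gave 0 to 178 of all and 0 to 11 without a host name. For the share of reads against day, rho was 0.94 and r 0.97 in the main setting. Without the reads of the 6 loops that rise late, with the late loops that have a host name kept, rho was 0.60 and r 0.55, a drop that the choice of loops fixes; this and the setting with loops under 100 reads only (rho 0.94, r 0.91) were chosen after seeing the data. With 1 library left out at a time rho was 0.90 to 1.0, with an exact permutation p of 0.0833 where it was 0.90 (without E60, E80, E100 or E115), and r was 0.95 to 0.98. The number of loops with a peak at 1 stage was 8, but 4 from 50 reads up, 1 per circRNA read, 5 with a ratio of 3, and 8 to 12 with 1 library left out. The number that rise late was 6, and 4 to 9 over its alternatives. The cause of these differences was not tested. The planned tests of day and region in the table of 5 regions, and the planned change of the share over regions, were not run, since the 3 positions found there had at most 5 reads. No paired analysis was possible because each group had 1 library. Depth limits single loops: 3 reads are 0.0510 RPM at E23 and 0.140 at E60.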

Other observations

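The 4 loops with at least 20 reads not described above were highest at E60, in each case without a difference from the second highest stage beyond counting error. They were chosen for description after their values were seen. The loop chr6:76025793-76026427 (635 bp) had 13, 7, 9, 5, 6 and 2 reads from E23 to E115, with 0.420 RPM at E60 and 0.0370 at E115. Its locus went from 25.4 FPKM at E23 to 11.4 at E115. The loop chr2:5185942-5186610 (669 bp) had 2, 8, 8, 0, 4 and 2 reads, while its locus stayed between 43.8 and 72.1 FPKM. In chr13:167164236-167182729, with 7, 5, 11, 2, 5 and 3 reads, loop and locus were both highest at E60. The loop chr1:133338956-133348678 had 3, 3, 7, 2, 6 and 3 reads while its locus went from 6.27 FPKM at E23 to 45.3 at E115, 7.23 times as high.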
